A study of Mus musculus with 4 samples.

Results

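The snoRNA host genes described here are 10 mouse long non-coding RNA genes, Gas5, Snhg1, Snhg3, Snhg5, Snhg6, Snhg7, Snhg8, Snhg12, Snhg15 and Snhg20. They were taken by gene symbol from among 49568 symbols, and all 10 were found. The series sequenced the RNA of migrasomes (2 libraries) and of cytosol (2 libraries) from mouse material, to ask which RNAs migrasomes carry. A migrasome is a vesicle of migrating cells, which grows on the retraction fibres that trail behind the cell. The labels give no cell type, strain, treatment or genotype for either group, and they do not say whether the libraries of a group came from separate preparations. P-values therefore measure only the spread between these libraries, which may be technical.

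Small nucleolar RNAs (snoRNAs) guide the chemical modification of ribosomal RNA in the nucleolus. Those with C and D boxes guide ribose methylation, and those with H and ACA boxes guide pseudouridylation. In mammals most of them are cut out of introns, and the gene whose intron carries a snoRNA is its host. In a non-coding host the introns hold the functional product, and the spliced exons leave the nucleus as an RNA with no long reading frame. Many hosts, coding and non-coding, begin transcription at a stretch of pyrimidines, the terminal oligopyrimidine (TOP) tract, which they share with ribosomal protein genes. The spliced RNA of several hosts, Gas5 among them, is bound by ribosomes and degraded by nonsense-mediated decay.

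The start of each gene shows whether it carries such a tract. RefSeq promoter windows of GRCm38.p6 were found for 9 of the 10 genes (10 windows, with 2 for Gas5), and not for Snhg6. The 60 bases around the start are printed for the 4 genes with a TOP-like start and for 2 without one, 5′ to 3′. The start site is base 31, and capitals mark the longest unbroken run of C and T within 20 bases either side of it.
Gas5, the downstream start (chr1:161035136-161035195, strand +): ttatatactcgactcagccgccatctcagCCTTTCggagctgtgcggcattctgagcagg
Snhg8 (chr3:123508307-123508366, strand -): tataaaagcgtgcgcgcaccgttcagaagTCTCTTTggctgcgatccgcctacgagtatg
Snhg12 (chr4:132308648-132308707, strand +): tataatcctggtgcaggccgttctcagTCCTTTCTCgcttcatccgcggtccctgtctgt
Snhg7 (chr2:26640215-26640274, strand -): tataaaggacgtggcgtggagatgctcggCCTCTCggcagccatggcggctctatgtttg
Snhg20 (chr11:117076753-117076812, strand +): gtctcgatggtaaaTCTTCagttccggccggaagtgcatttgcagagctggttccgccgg
Snhg15 (chr11:6528731-6528790, strand -): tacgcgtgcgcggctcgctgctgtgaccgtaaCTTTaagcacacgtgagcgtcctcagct
A TOP-like start was defined as a C followed by at least 5 further C or T, with that C within 5 bases of the start site, on the gene's own strand. It was found in 4 of the 10 windows (40%), those of Gas5, Snhg7, Snhg8 and Snhg12, against 10.2% of all 32851 promoter windows and 36.8% of 76 windows of ribosomal protein genes. Snhg1 had a longer run of 9 pyrimidines that began 4 bases after the first base of the transcript, and its window did not meet the definition. Runs of at least 8 pyrimidines within 20 bases of the start were present in 2 of the 10 windows on the gene's strand and in 1 on the other strand, against 16.0% and 17.7% of all windows. The letters TATAA, between 40 and 20 bases before the start, were present on the gene's strand in the windows of Snhg7, Snhg8 and Snhg12, against 3.31% of all windows. On the other strand they were present in 2 of the 10 windows, against 1.47% of all windows. These matches describe letters and not the use of a start site.

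The deposited values are read counts per gene, scaled by the authors with a size factor for each library, and are called normalised read counts here. Whole reads could be recovered from them, and the libraries held 5228713 and 5171092 reads in migrasome replicates 1 and 2, and 7529136 and 8608369 in cytosol replicates 1 and 2. The value of 1 read was 1.41 and 1.32 in migrasome, and 0.776 and 0.686 in cytosol. Markers of other cell types were low. The 13 macrophage, epithelial, endothelial and erythroid markers summed to 11.3 to 17.1 in migrasome and 10.1 to 14.4 in cytosol, with Krt18 at 0, and none reached the test. All 6 fibroblast markers were tested, with 1 higher and 4 lower in migrasome, beside 8.68% of all genes tested higher and 17.7% lower. Of the 3 neural markers, all low, 2 were higher in migrasome. That count was 0 with equal library totals and by DESeq2, 2 by edgeR and 3 with quantile normalization. What part, if any, these markers play in the results on the host genes was not tested. Values are relative to the RNA of each fraction, so a smaller share of a transcript and a larger share of all other RNA cannot be told apart.

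The log2 difference of a gene is its mean log2(value + 1) in migrasome minus that in cytosol, and its standard error (SE) comes from limma, fitted to all 10860 genes that reached a value of 10 in at least 2 libraries. The Benjamini-Hochberg adjusted p had to be below 0.05. All 10 host genes reached the test, but Snhg7 did so through the cytosol libraries alone. Of the 10 host genes, 3 were lower in migrasome (Snhg7, Snhg20 and Snhg12), none was higher and 7 did not pass. Over all genes tested, 17.7% were called lower and 8.68% higher. At an unadjusted p of 0.05, 5 of the 10 were lower and 0 higher. Of all 10860 genes tested, 4519 were below that threshold, in either direction. The same background applies to the counts at an unadjusted p given for other lists. edgeR on the recovered reads called 3 lower and 0 higher, and DESeq2 2 and 0. Without migrasome replicate 1 limma called 5 lower and 1 higher. With every library scaled to the same total, 6 were called lower, beside 2522 of all 10860 genes. The median difference of all genes was then -0.27, so this scaling moved genes in general towards lower values. The median difference of the 10 genes was -0.48, beside -0.004 for all genes tested, and it was -0.26 without Snhg7 and Snhg20.

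**Figure D1:**
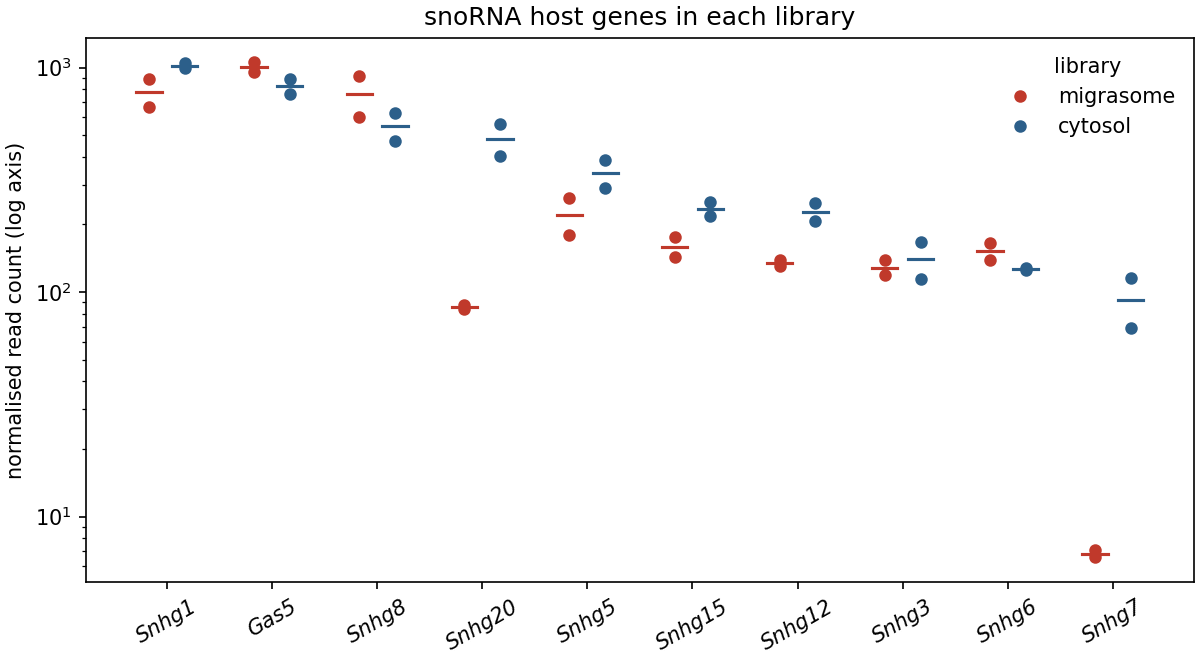
Normalised read count (log axis) of each snoRNA host gene in the 2 migrasome and the 2 cytosol libraries. Points are libraries and bars are group means. The groups lie far apart for Snhg20 (means 86.0 in migrasome and 481 in cytosol) and Snhg7 (means 6.83 in migrasome and 92.5 in cytosol).

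The hosts of C and D box snoRNAs come first. Gas5, named for its accumulation in growth-arrested cells, spans positions 161034422 to 161038539 of chromosome 1 (plus strand), by GENCODE M21 on GRCm38 (the source of every gene position unless another is named), and holds 9 annotated snoRNA loci. Its normalised read counts were 959 and 1053 in migrasome replicates 1 and 2, against 759 and 892 in cytosol replicates 1 and 2. Both migrasome libraries lay above both cytosol libraries, but the gap between the groups was smaller than the distance between the cytosol libraries. The log2 difference of 0.29 ± 0.20 (SE) did not pass (limma adjusted p = 0.30), and its unadjusted 95% interval ran from -0.16 to 0.74. It was 0.02 with equal library totals, 0.11 with quantile normalization and 0.17 without cytosol replicate 1. Of all the genes tested, 33.3% had both migrasome libraries above both cytosol libraries and 36.3% had both below. Among the 10 hosts the counts were 2 above, 6 below and 2 with overlap.

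Snhg1 lies on chromosome 19 from 8723475 to 8726443 (plus strand) and holds 8 snoRNA loci. It stood at 892 and 665 in migrasome, against 1043 and 991 in cytosol. Both migrasome libraries were below both cytosol libraries, and replicate 2 was the lower of the migrasome libraries. The log2 difference was -0.40 ± 0.22 (limma adjusted p = 0.19), with an unadjusted 95% interval from -0.88 to 0.08. Snhg1 did pass with equal library totals (limma adjusted p = 0.033), and also when migrasome replicate 1 was left out (adjusted p = 0.037). When migrasome replicate 2 was left out instead, the log2 difference was -0.19 (adjusted p = 0.45).

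Snhg5, on chromosome 9 from 88521050 to 88522929 (minus strand), is the host of Snord50a and Snord50b. Its values were 180 and 262 in migrasome, against 292 and 388 in cytosol. The groups did not overlap, although migrasome replicate 2 came close to cytosol replicate 1. The log2 difference was -0.63 ± 0.26 and did not pass (limma adjusted p = 0.095). It passed with equal library totals (limma adjusted p = 0.045), with a replicate block (adjusted p = 0.0175) and when migrasome replicate 2 was left out (adjusted p = 0.0088). When migrasome replicate 1 was left out instead, the log2 difference was -0.36 (adjusted p = 0.28).

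Snhg6 is the host of Snord87 and spans positions 9941959 to 9944118 of the minus strand of chromosome 1. Its values were 165 and 138 in migrasome, against 126 and 128 in cytosol. The migrasome libraries were both the higher ones by a small margin. The log2 difference was 0.25 ± 0.24 (limma adjusted p = 0.44), and it was -0.02 with equal library totals. Mcmdc2, which shares 127 exonic bases with Snhg6 on the opposite strand, had no read in any library.

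The hosts of H and ACA box snoRNAs follow. Snhg7, the host of Snora43 and Snora17, was not found by its symbol in GENCODE M21. RefSeq (GRCm38.p6) places it on chromosome 2 from 26637176 to 26640244 (minus strand). Overlap of its exons with other genes was not examined. Snhg7 had 5 reads in each migrasome library, against 89 and 169 reads in cytosol. Its normalised read counts were 7.07 and 6.58 in migrasome, against 69.0 and 116 in cytosol. The exact 95% Poisson intervals, which cover counting error only, were 2.30 to 16.5 and 2.14 to 15.4 in migrasome, and 55.4 to 85.0 and 99.1 to 135 in cytosol. The intervals of the groups were far apart, whereas those of the cytosol libraries did not overlap each other. Snhg7 fell by 3.53 ± 0.39 on the log2 scale, 11.6-fold lower in migrasome (limma adjusted p = 0.00054). Snhg7 had reached the filter through cytosol alone, and with no filter on low values the limma adjusted p was 0.0036. The difference ranged from -3.90 to -3.0 over 14 alternative analyses, and the call held in each. Snhg7 missed a minimum mean of 50 and was not tested in the remaining one.

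Snhg8 stood in contrast to Snhg7. It lies on chromosome 3 from 123507552 to 123508404 (minus strand) and is the host of Snora24. Its values were 601 and 920 in migrasome, against 472 and 626 in cytosol. Migrasome replicate 2 was the highest library, but migrasome replicate 1 lay below cytosol replicate 2, so the groups overlapped. The log2 difference of 0.45 ± 0.26 did not pass (limma adjusted p = 0.21, unadjusted 95% interval from -0.12 to 1.02). The log2 difference was 0.76 without migrasome replicate 1, where it passed as higher (limma adjusted p = 0.024). With migrasome replicate 2 left out instead it was 0.14 (adjusted p = 0.62). It was 0.18 with equal library totals and 0.25 without cytosol replicate 1.

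Snhg15, on chromosome 11 from 6525591 to 6528760 (minus strand), is the host of Snora9. It stood at 175 and 143 in migrasome, against 253 and 218 in cytosol. The groups did not overlap, and the libraries of each group were close to one another. The log2 difference was -0.56 ± 0.23 (limma adjusted p = 0.097). Snhg15 passed as lower with equal library totals (limma adjusted p = 0.029) and with a replicate block (adjusted p = 0.042). With quantile normalization the log2 difference was -0.33 and did not pass (adjusted p = 0.31). It was -0.71 without migrasome replicate 1 and -0.42 without migrasome replicate 2.

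Snhg12, on chromosome 4 from 132308623 to 132311024 (plus strand), carries H and ACA box snoRNAs (Snora16a, Snora44 and Snora61) and the C and D box Snord99. Its values were 130 and 140 in migrasome, against 207 and 250 in cytosol. The migrasome libraries were close to each other and clearly below both cytosol libraries. Snhg12 fell by 0.75 ± 0.23 on the log2 scale, 1.68-fold lower in migrasome (limma adjusted p = 0.039). Its call was lost in 7 of 15 alternative analyses. Among these were the analyses without cytosol replicate 1 (limma adjusted p = 0.13) and without cytosol replicate 2 (adjusted p = 0.315), and DESeq2 (adjusted p = 0.064).

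Snhg20 is annotated with a small Cajal body RNA (scaRNA), the kind of guide that directs modification of spliceosomal RNAs. It lies on chromosome 11 from 117076008 to 117078955 (plus strand). It stood at 87.7 and 84.2 in migrasome, against 404 and 558 in cytosol. These are 62 and 64 reads in migrasome and 521 and 813 reads in cytosol, so both groups were well above the depth limit. Snhg20 fell by 2.45 ± 0.24 on the log2 scale, 5.47-fold lower in migrasome (limma adjusted p = 0.00045). The call held in all 15 alternative analyses, with differences from -2.72 to -2.22.

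**Figure D2:**
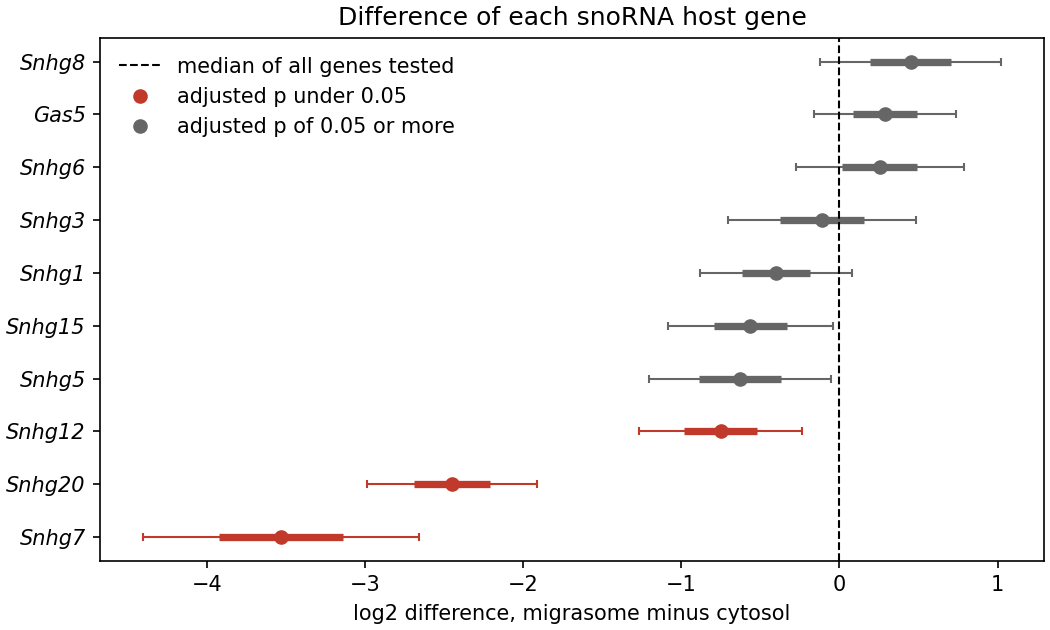
Log2 difference (migrasome minus cytosol) of each snoRNA host gene, with thick bars for the SE, thin bars for the unadjusted 95% interval from limma, and a dashed line at the median of all genes tested. The intervals of Snhg7 (-4.40 to -2.66) and Snhg20 (-2.99 to -1.91) lie far to the left of those of the other 8 genes.

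For a single gene, the smallest two-sided p of an exact permutation test on these 4 libraries is 0.33, so the calls rest on the spread that limma shares across genes. Ratios within a library do not depend on its scaling. Snhg20 was at 0.0914 and 0.0800 of the Gas5 count in migrasome, against 0.533 and 0.625 in cytosol. Snhg7 was at 0.00737 and 0.00625 of Gas5 in migrasome, against 0.0910 and 0.130 in cytosol. The ratio of Snhg8 to Gas5 was 0.627 and 0.874 in migrasome, against 0.623 and 0.702 in cytosol. The ratio of Snhg1 to Gas5 was 0.931 and 0.631 in migrasome, against 1.38 and 1.11 in cytosol. The ratios of Snhg1, Snhg7 and Snhg20 thus separated the groups, and that of Snhg8 had overlapping ranges. With the scaling used, both migrasome libraries lay above both cytosol libraries for Gas5, and below them for Snhg1, Snhg7 and Snhg20. The separation of these ratios therefore repeats those values and is not separate support.

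The 10 host genes together summed to normalised read counts of 3316 and 3549 in migrasome, against 3740 and 4332 in cytosol. This was 0.0485% ± 0.0052 of the summed values in migrasome and 0.0687% ± 0.0066 in cytosol (SD, n = 2). Gas5 held 28.9% and 29.7% of the sum in migrasome, against 20.3% and 20.6% in cytosol. Snhg20 held 2.64% and 2.37% in migrasome, against 10.8% and 12.9% in cytosol. The order of abundance therefore differed between the fractions.

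Levels of different genes were compared per kilobase of annotated exons, which was possible for 9 genes and not for Snhg7. GENCODE lists many transcripts with retained introns for these genes, so the exon lengths, and with them these levels, depend on the annotation. Snhg8 had the highest level, 892 ± 264 per kilobase in migrasome and 644 ± 127 in cytosol (SD, n = 2). In migrasome Gas5 (268 ± 17.7) and Snhg1 (262 ± 54.2) came next and overlapped. Snhg6, Snhg3, Snhg5 and Snhg15 followed between 132 and 117, each overlapping its neighbour, and then Snhg12 (56.1 ± 2.77) and Snhg20 (30.8 ± 0.87), which stood apart from each other. In cytosol Snhg1 (343 ± 12.5) stood above Gas5 (219 ± 25). Gas5, Snhg5, Snhg15, Snhg20 (172 ± 38.8) and Snhg3 formed a run in which each overlapped the next, with Snhg6 (110 ± 1.17) and Snhg12 (95.1 ± 12.5) below them. Snhg20 was thus the lowest of the 9 per kilobase in migrasome and in the middle of them in cytosol.

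The differences of hosts with and without a TOP-like start were set side by side, and no test compared them. With one, the log2 differences were -3.53 (Snhg7), -0.75 (Snhg12), 0.29 (Gas5) and 0.45 (Snhg8). Without one, they were -2.45 (Snhg20), -0.63 (Snhg5), -0.56 (Snhg15), -0.40 (Snhg1) and -0.11 (Snhg3). The 2 largest decreases, of Snhg7 and Snhg20, fell 1 in each set. Gas5 met the definition only at its downstream start. For Snhg20 the start site used was 117076783, while GENCODE begins the gene at 117076008, so the sets depend on the start site chosen. Whether a TOP-like start plays a part in the differences was not tested.

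The small RNAs carried by the hosts could be followed only in part. Of 31 snoRNA and scaRNA symbols annotated inside the 10 hosts, 5 had any read and 26 had none. Of the 20 that are shorter than 100 bases 1 had a read, and of the 11 longer ones 4. Among all symbols of this kind, 1 of 460 under 100 bases reached 20 summed reads, against 60 of 1069 longer ones. Counts of 0 here therefore say little about the small RNAs themselves. Most of the 31 also overlap annotated exons of their host, and how reads in such overlaps were counted was not given. Among small RNAs of at least 100 bases inside another gene, 18.46% with such overlap reached 20 summed reads. Of the others, 17.65% did. Snord87 had a single read, in cytosol replicate 1.

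Snhg3 was the one host with snoRNAs in good depth. It lies on chromosome 4 from 132348014 to 132353686 (minus strand) and holds Snora73a and Snora73b, H and ACA box RNAs also called U17 that act in the cleavage of pre-ribosomal RNA. Their sequences are printed 5′ to 3′ from the GENCODE M21 transcripts, since they show how far reads of the 2 copies can be told apart. Capitals mark the positions at which they differ.
Snora73a (chr4:132352775-132352979, strand -): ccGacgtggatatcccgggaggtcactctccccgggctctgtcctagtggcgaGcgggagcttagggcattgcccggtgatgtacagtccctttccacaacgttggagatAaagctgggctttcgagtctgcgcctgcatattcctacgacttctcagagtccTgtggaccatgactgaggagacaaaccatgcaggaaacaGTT
Snora73b (chr4:132352322-132352526, strand -): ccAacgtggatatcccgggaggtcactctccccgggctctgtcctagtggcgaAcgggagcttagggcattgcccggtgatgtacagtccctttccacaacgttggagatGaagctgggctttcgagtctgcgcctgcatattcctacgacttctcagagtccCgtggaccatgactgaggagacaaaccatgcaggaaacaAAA
Both are 205 bases long and differ at 7 positions (96.6% identity), so reads that cover none of these positions fit both copies and the values of the single copies are uncertain. Snora73a also overlaps annotated exons of Snhg3, and Snora73b does not.

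The host RNA Snhg3 stood at 119 and 138 in migrasome, against 115 and 167 in cytosol. The groups overlapped, with a log2 difference of -0.11 ± 0.27 (limma adjusted p = 0.77) whose sign turned with quantile normalization (0.23) and without cytosol replicate 2 (0.16). Rcc1, a protein-coding gene that shares 135 exonic bases with Snhg3 on the same strand, had 1037 and 809 in migrasome, against 936 and 978 in cytosol. Its groups overlapped as well. Of the exonic bases of Snhg3, 705 are shared with Gm17300 on the opposite strand, which had at most 3 reads in a library.

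Both snoRNAs were lower in migrasome. Snora73b stood at 269 and 155 in migrasome, against 460 and 656 in cytosol, and fell by 1.42 ± 0.29 on the log2 scale (limma adjusted p = 0.0073). Snora73a stood at 185 and 88.2 in migrasome, against 292 and 383 in cytosol, and fell by 1.38 ± 0.33 (adjusted p = 0.015). For each, both migrasome libraries lay below both cytosol libraries, and both calls held in 14 of 15 alternative analyses and were lost in the test against a 1.5-fold change. Snora73b over Snhg3 was 2.26 and 1.12 in migrasome, against 4.01 and 3.93 in cytosol, a ratio that separated the groups. Snora73a over Snora73b was 0.689 and 0.568 in migrasome, against 0.636 and 0.584 in cytosol, and did not separate them. The difference between the snoRNAs and their host was not tested across genes.

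**Figure D3:**
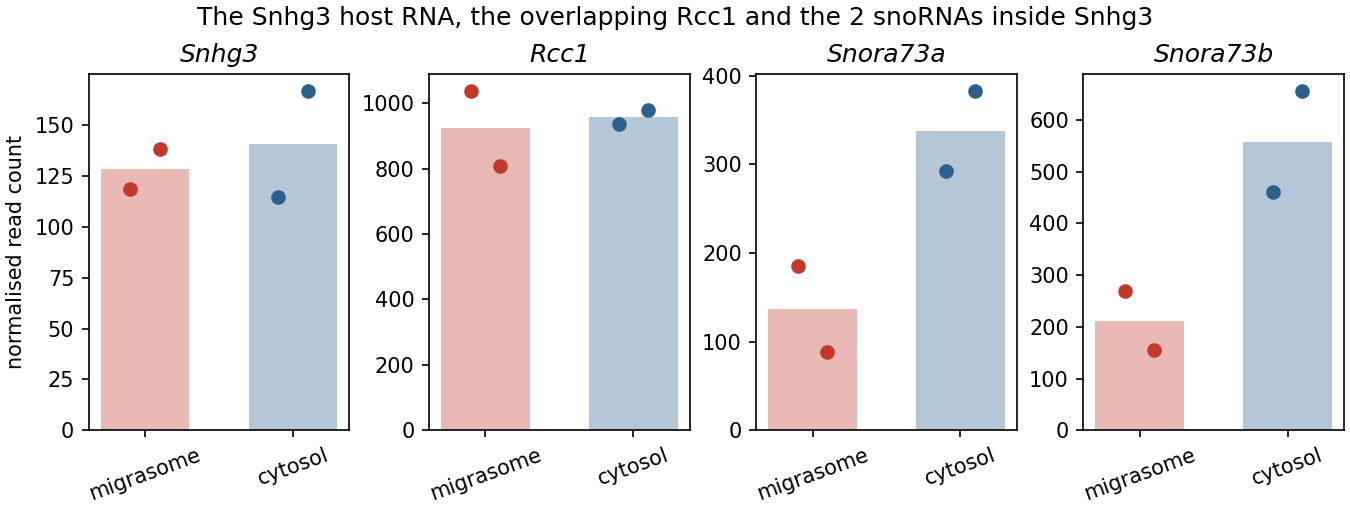
Normalised read count of Snhg3, of the overlapping Rcc1 and of the 2 snoRNAs inside Snhg3, each on its own axis from 0, with bars for the mean and points for the 2 libraries per group. The libraries of the groups overlap for Snhg3 and Rcc1 and are apart for Snora73a (185 and 88.2 in migrasome, 292 and 383 in cytosol) and Snora73b.

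The other small RNAs with reads were near the depth limit. Snora16a, inside Snhg12, had 1 and 6 reads in migrasome, against 23 in each cytosol library (log2 difference -1.94 ± 0.66, limma adjusted p = 0.055). Snora17, inside Snhg7, had 1 and 8 reads in migrasome, against 15 and 19 in cytosol (log2 difference -1.34 ± 0.73, adjusted p = 0.19). Both reached the test only because of their cytosol values, so these differences describe the libraries and do not stand as evidence of a decrease. In migrasome replicate 2 Snora17 thus had more reads than its host, which had 5, and in migrasome replicate 1 it had fewer.

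Further non-coding hosts gave a mixed picture. Of 13 listed, 11 were in the table and 9 were tested. Of these 9, 2 were lower, 0 higher and 7 not called, beside 17.7% of all genes called lower and 8.68% higher. The median log2 difference of the 9 was -0.21, beside -0.004 for all genes tested. At an unadjusted p of 0.05, 3 were lower and 1 was higher, beside 4519 of all 10860 genes in either direction. On the recovered reads, edgeR called 3 lower and DESeq2 1, and both called 0 higher. With quantile normalization 0 were lower and 1 was higher. The sign of the median turned with quantile normalization (0.19), without the filter on low values (0.16), without cytosol replicate 1 (0.05) and without migrasome replicate 2 (0.10). Snhg17 fell, with 139 and 138 in migrasome against 283 and 239 in cytosol (log2 difference -0.91 ± 0.23, limma adjusted p = 0.017). Snhg4, named after its values were seen, fell too, with 79.2 and 57.9 in migrasome against 142 and 115 in cytosol (-0.91 ± 0.28, adjusted p = 0.038). Leaving out either cytosol library ended both calls, as did quantile normalization. Zfas1, the most abundant, stood at 847 and 761 in migrasome against 912 and 1022 in cytosol without passing (adjusted p = 0.33). Epb41l4aos stood at 113 and 98.7 in migrasome against 86.9 and 102 in cytosol.

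Protein-coding genes whose introns carry snoRNAs lay on the other side of the median. Of 42 tested, many of them genes for ribosomal proteins and translation factors, 12 were higher, 1 was lower and 29 were not called. Their median log2 difference was 0.64. The background was 8.68% of all genes called higher and 17.7% called lower. With quantile normalization, which moves the median of all genes by 0.12, their median was -0.004 and 0 were higher. On the recovered reads, edgeR called 14 higher and DESeq2 25. With equal library totals, which move it by -0.27, their median was 0.37 and 4 were higher. The count of 12 was 1 without 1 or the other cytosol library, 20 without migrasome replicate 1 and 25 without migrasome replicate 2. Rps3, a ribosomal protein gene, rose to 33913 and 27222 in migrasome, against 15292 and 15874 in cytosol (log2 difference 0.96 ± 0.27, limma adjusted p = 0.026). Rack1, which encodes a scaffold protein of the ribosome, rose by 0.81 ± 0.26 (limma adjusted p = 0.045). Rpl12 stood at 27120 and 36795 in migrasome against 16123 and 22062 in cytosol without passing. Neither Rps3 nor Rack1 passed under quantile normalization, or when either cytosol library was left out. Because near-identical pseudogenes of ribosomal protein genes are common, their single values are uncertain.

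Ppan was the 1 coding host that fell, and it was named after its values were seen. It encodes a nucleolar ribosome assembly factor, and stood at 173 and 290 in migrasome against 476 and 505 in cytosol (log2 difference -1.13 ± 0.27, limma adjusted p = 0.013). All 79 ribosomal protein genes tested, which include some of the coding hosts, had a positive difference, with 26 higher and a median of 0.65 (0.03 with quantile normalization). The count of 26 was 0 without cytosol replicate 1, 2 without cytosol replicate 2, 46 without migrasome replicate 1 and 52 without migrasome replicate 2. It was 2 with quantile normalization, 8 with equal library totals, 60 with a replicate block, 24 by edgeR and 55 by DESeq2. No test set the coding hosts against the non-coding ones.

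**Figure D4:**
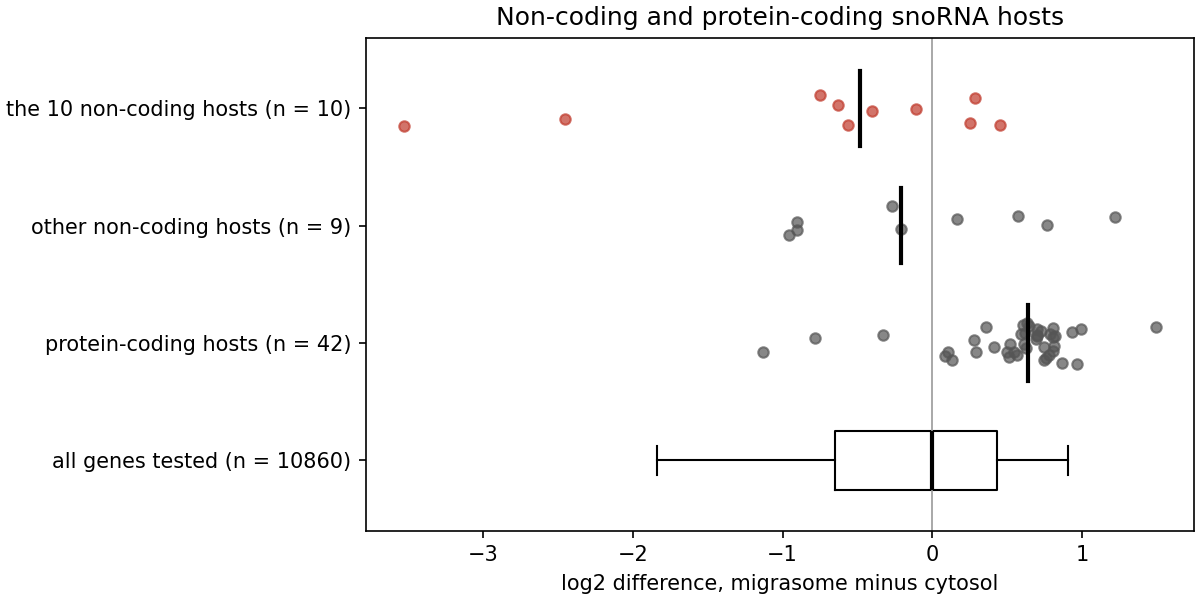
Log2 difference (migrasome minus cytosol) of the 10 non-coding hosts, of 9 other non-coding hosts and of 42 protein-coding hosts, with a point per gene and a bar at each median, above a box for all 10860 genes tested (quartiles, with whiskers from the 5th to the 95th percentile). The medians are -0.48, -0.21, 0.64 and -0.004, and with quantile normalization those of the other non-coding and the protein-coding hosts were 0.19 and -0.004.

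Of 8 genes for core snoRNA-protein subunits none passed (median log2 difference 0.43), beside 8.68% of all genes called higher and 17.7% lower. With a replicate block 3 were higher, beside 1802 of all 10860 genes. Without migrasome replicate 2 the median of the 8 was 0.52. The median was 0.16 with equal library totals, 0.18 with quantile normalization and 0.27 without migrasome replicate 1. At an unadjusted p of 0.05, 2 were higher, beside 4519 of all 10860 genes in either direction. On the recovered reads, edgeR called 0 and DESeq2 1. Nop58, which binds C and D box snoRNAs, stood at 4705 and 3301 in migrasome against 2514 and 2656 in cytosol (limma adjusted p = 0.078). Nop56, its partner and itself a host of snoRNAs, stood at 2143 and 2598 in migrasome against 1788 and 2601 in cytosol. Dkc1, the pseudouridine synthase of H and ACA box particles, stood at 2069 and 1457 in migrasome against 1143 and 1279 in cytosol (adjusted p = 0.11). Of these, Nop58 and Dkc1 had both migrasome libraries above both cytosol libraries, as did 33.3% of all genes tested.

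Of 11 genes for assembly factors of these particles, 3 were higher, none was lower and 8 did not pass. Over all genes tested 8.68% were higher and 17.7% lower. The median of the 11 was 0.52. The count higher was 1 with equal library totals and 6 with a replicate block or without migrasome replicate 2, and 1 was lower with equal library totals and with the block. The median was 0.25 with equal library totals and 0.34 without cytosol replicate 1. The 3 were Naf1, which loads early onto H and ACA box RNAs (1.09 ± 0.25, limma adjusted p = 0.012), Znhit6 (0.92 ± 0.23, adjusted p = 0.016) and Rpap3 (0.71 ± 0.22, adjusted p = 0.039), and they were named after their values were seen. Znhit6 and Rpap3 lost their calls when either cytosol library was left out. Rpap3 also needed migrasome replicate 1, and Naf1 needed cytosol replicate 2. Nolc1, Ruvbl2 and Ruvbl1, the most abundant, did not pass.

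The genes of nonsense-mediated decay were mostly not called. Beside 8.68% of all genes higher and 17.7% lower, 1 of these 12 was higher, 1 was lower and 10 did not pass. Their median of -0.02 lay near that of all genes, and it was 0.20 where a mean of at least 50 was required and -0.19 without migrasome replicate 1. The count higher was 0 without 1 or the other cytosol library and 4 without migrasome replicate 2. Smg8, a regulator of the kinase of this pathway, stood at 60.8 and 76.3 in migrasome against 176 and 204 in cytosol and fell by 1.46 ± 0.26 (limma adjusted p = 0.0030). Upf2, a core factor, rose by 0.77 ± 0.24 (adjusted p = 0.040), and its call was lost when any 1 of the cytosol libraries or migrasome replicate 1 was left out. Both were named after their values were seen. The most abundant, Smg1, Smg5 and Upf1, did not pass, with Upf1 at 895 and 701 in migrasome against 629 and 547 in cytosol. Of 19 other genes for cytoplasmic decay and exosome subunits 3 were higher and 0 lower, beside 8.68% and 17.7% of all genes. The 3 were Ttc37, and Dcp2 and Exosc10, which were named after their values were seen. The median of the 19 was 0.48. Without migrasome replicate 2, 1 was lower. The count higher was 1 without 1 or the other cytosol library, 0 with equal library totals and 8 without migrasome replicate 2. At an unadjusted p of 0.05, 0 of these 19 were lower, and edgeR and DESeq2 called 0 lower.

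A list of long non-coding RNAs described as nuclear was set beside the hosts. Where each of them lies in these cells was not measured, so a call in this list is not a measure of nuclear RNA. Of 6 tested, 1 was higher (Pvt1), 1 was lower (Tug1) and 4 were not called, beside 8.68% of all genes higher and 17.7% lower. The median log2 difference of the 6 was -0.68, and it was -0.33 without cytosol replicate 1. The count lower was 2 without migrasome replicate 1, without cytosol replicate 2, with equal library totals, with quantile normalization and by edgeR, and it was 3 with a replicate block and by DESeq2. Malat1 stood at 5102 and 3882 in migrasome against 10534 and 5593 in cytosol (limma adjusted p = 0.084), and Neat1 at 260 and 237 in migrasome against 728 and 278 in cytosol (adjusted p = 0.11). In both, cytosol replicate 1 was far above cytosol replicate 2. Tug1 fell by 0.96 ± 0.20 (limma adjusted p = 0.0074), a call that needed cytosol replicate 2. Pvt1, named like Tug1 by its call, rose by 1.08 ± 0.33 (adjusted p = 0.039), and leaving out migrasome replicate 2 or cytosol replicate 1 ended its call. No test set these 6 RNAs against the hosts. Whether nuclear RNA in the cytosol libraries plays a part in the difference of Snhg7 and Snhg20 was not tested.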

How the data were processed

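RNA of purified migrasomes and of cytosol was measured in 2 libraries each, grouped by sample title. The submitters' processing notes list GRCm38 as genome build and, with no versions, the tools STAR, HTSeq, DESeq, cutadapt, FastQC and Trimmomatic. The deposited signal of a gene is a read count scaled by the authors with a size factor for each library, as the listed tools and the values show. Annotation, strand setting and handling of multi-mapping reads were not given in the sources used here. Overlapping and antisense genes and near-identical copies are therefore uncertain. Divided by the smallest value above 0 of the library, 100% of values were whole (tolerance 0.001), which gave back the reads. The value of 3 reads, the limit that a count of 0 allows, was 4.24 and 3.95 in migrasome and 2.33 and 2.06 in cytosol.

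The test was limma 3.58.1 under R 4.3.3, with a trended eBayes, on log2(value + 1) of genes that reached 10 in 2 or more of the 4 libraries. P-values were adjusted by Benjamini-Hochberg over all genes tested, with a threshold of 0.05. Since the deposited values are normalised, count models served as alternatives. On the recovered reads, edgeR 4.0.16 (quasi-likelihood) called 1071 genes higher and 2064 lower, and DESeq2 1.42.0 called 1140 and 1599, against 943 and 1919 by limma. The functions were tested on simulated data. The members and lists were chosen with earlier results of these data known. Named were all members, the small RNAs inside them with reads, up to 3 of the most abundant tested genes of each list, the genes nearest in profile to the most abundant member, and genes that are said to be named after their values were seen. The overlap partners of members were named for their position. Positions came from GENCODE M21 and RefSeq. Replicate numbers were not treated as pairs, because the labels do not say that they pair libraries. Figures were drawn with matplotlib 3.10.9.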

Additional observations from a re-analysis of the deposited data

How the results depend on the processing

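Snhg7 (14 alternatives) and Snhg20 (15) kept direction and call wherever they were tested, but Snhg7 had reached the filter through cytosol alone. The count of host genes called lower was 5 with a replicate block and 6 with equal library totals, which also moved the median difference to -0.75, and it ranged from 2 to 5 when 1 library was left out. The count called higher then ranged from 0 to 1. The median difference ranged from -0.49 to -0.32 when 1 library was left out. With equal library totals the median of all genes was -0.27. Snhg3 turned positive with quantile normalization (0.23) and ranged from -0.38 to 0.16 when 1 library was left out, positive without cytosol replicate 2, and Snhg6 turned negative with equal library totals (-0.016). Over all genes, the count called higher was 393 without a filter, 322 with equal library totals, 483 without a trend, 1802 with a replicate block and 78 against a 1.5-fold change, and it ranged from 231 to 2085 when 1 library was left out. The count called lower was 780 against a 1.5-fold change and ranged from 1147 to 2800 when 1 library was left out. With 1 library left out, the lone library of a group is assumed to vary like the others. The cause of these changes was not tested. Replicate 1 minus replicate 2 correlated at r = 0.226 between the groups over 10860 genes, and with 2 pairs this does not show that the numbers pair libraries. The depth limits Snhg7, with 5 reads in each migrasome library, and most of the small RNAs.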

Other observations

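The Gas5 profile over the 4 libraries was most like those of Gfm2, Rcan1 and Sept8, by Euclidean distance between log2(value + 1) profiles centred on their means (0.010, 0.030 and 0.033), among 8246 named genes with a mean of at least 50. Gfm2, a mitochondrial translation factor, stood at 201 and 218 in migrasome against 158 and 186 in cytosol. With 4 libraries such nearness is a description only.

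Of 11 TOP regulators 1 was higher and 0 were lower (median log2 difference 0.11), beside 8.68% and 17.7% of all genes tested. Also at an unadjusted p of 0.05, and by edgeR and DESeq2, 0 of the 11 were lower. The poly(A)-binding protein gene Pabpc1 rose by 0.74 ± 0.23 (limma adjusted p = 0.041), a call lost when 1 or the other cytosol library was left out. The difference was 0.05 with quantile normalization (adjusted p = 0.84) and 0.47 with equal library totals (adjusted p = 0.085). Larp1, which binds TOP mRNAs, stood at 1957 and 1886 in migrasome against 1942 and 1522 in cytosol, and Larp4 at 1738 and 1542 in migrasome against 1991 and 1521 in cytosol. Of 6 exon junction genes none passed (median 0.20, with 0 at an unadjusted p of 0.05 and 0 by edgeR and DESeq2). Among them Eif4a3 stood at 1670 and 1850 in migrasome against 1154 and 1677 in cytosol.

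Hosts were also taken from the annotation, as genes that hold a snoRNA or scaRNA gene on their strand outside their own exons. Of 165 tested protein-coding genes 32 were higher and 13 lower (median 0.29), and of 10 non-coding genes 1 was higher and 1 lower (median 0.28, with the 10 host genes left out), beside 8.68% of all genes higher and 17.7% lower. With equal library totals 14 of the coding genes were higher and 20 lower (median 0.02), and the non-coding median was 0.008. With quantile normalization 21 of the coding genes were higher and 10 lower (median 0.13). Where overlap with exons was allowed, a choice made after the data were seen, 38 of 202 coding genes were higher and 16 lower (median 0.36), and of 17 non-coding genes 1 was higher and 3 lower (median -0.21). With equal library totals 14 of these coding genes were higher and 26 lower (median 0.09), and with quantile normalization 21 and 15 (median 0.06). The non-coding genes then had medians of -0.46 with equal library totals and -0.03 with quantile normalization.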
